A study of Rattus norvegicus with 18 samples.

Results

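Transcripts of 9 genes of Fc receptor and ITAM signalling were measured in the lungs of male F344 rats that had been instilled repeatedly with a multiwalled carbon nanotube. The genes were *Fcgr1a*, *Fcgr2a*, *Fcgr2b*, *Fcgr3a*, *Fcer1g*, *Tyrobp*, *Syk*, *Btk* and *Plcg2*. They were taken by their symbols from the 22081 genes of the RNA-seq tables, and each of the 9 had a row at every time point. The MWCNT-treated rats received MWNT-7, a thick and straight nanotube, by instillation through the larynx at 0.5 mg/kg every 4 weeks from 9 weeks of age, and the control rats received the vehicle, saline with Tween 80. Lungs were taken at Years 0.5, 1 and 2 counted from the start of dosing, from 3 rats of each treatment, so that there were 6 groups and 18 rats, each a separate animal. The RNA came from a small piece of the accessory lobe without visible tumor nodules, and it holds all the cells of that piece.

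Fc receptors are cell surface proteins that bind the constant part of antibodies. Activating Fc gamma receptors do not signal alone but pair with the common gamma chain encoded by *Fcer1g*, whose tail carries an immunoreceptor tyrosine-based activation motif (ITAM). Once the ITAM is phosphorylated by Src family kinases, the kinase SYK binds to it, and BTK and the phospholipase PLCG2 then raise calcium and drive phagocytosis, degranulation and cytokine release. TYROBP, also called DAP12, is a second ITAM adaptor, used by TREM2 and related receptors of myeloid cells. FCGR2B is the inhibitory counterpart and carries an inhibitory motif (ITIM) that recruits phosphatases. In the lung these proteins are best known from macrophages, which take up inhaled particles. Rat receptor names do not follow the human ones. RefSeq lists Fcgr3 and fc-gamma RIII as synonyms of rat *Fcgr2a*, CD16-2 and Fcgr4 as synonyms of *Fcgr3a*, and CD32 as a synonym of *Fcgr2b*.

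Total counts per rat ranged from 13297643 to 21130757, with a median of 14721398 in the control rats and 15804905 in the MWCNT-treated rats. The tissue label held, since the 6 lung markers *Sftpc*, *Sftpb*, *Scgb1a1*, *Ager*, *Cldn18* and *Cdh5* summed to between 42762 and 62881 TPM in every rat. TPM is a relative number of transcripts after scaling for gene length, so that it allows levels of different genes to be compared. Fold changes are on the log2 scale and come from edgeR with TMM scaling, MWCNT-treated against control at one time point. Upregulated and downregulated genes, or DEGs, were those whose false discovery rate (FDR, Benjamini-Hochberg over all genes tested) was below 0.05 and whose log2 fold change was above 1 or below -1.

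*Fcgr2a*, *Fcgr2b*, *Fcgr3a* and *Fcer1g* lie on chromosome 13 of Rnor_6.0, the rat build named for the deposited tables. *Fcgr2b* spans chr13:89327794-89433815 on the minus strand, *Fcgr3a* lies within that span on the plus strand at chr13:89385859-89396051, *Fcer1g* is at chr13:89601896-89606326 and *Fcgr2a* at chr13:91146876-91229066, the latter pair on the minus strand. *Fcgr1a* is at chr2:198430530-198458041, *Tyrobp* at chr1:88875375-88879303, *Syk* at chr17:12614311-12669573, *Btk* at chrX:105360922-105390580 and *Plcg2* at chr19:50045020-50173220. Whether reads were counted by strand is not given in the sources used here, so reads from the stretch shared by *Fcgr2b* and *Fcgr3a* cannot be told apart. A further entry, LOC108348047, lies inside *Fcgr2a* on the same strand, and its values are given beside those of *Fcgr2a*.

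RefSeq promoter windows of assembly GRCr8, from 250 bases before to 50 bases after a gene start, were matched for 5 of the 9 genes: *Fcgr2a* (with 2 windows), *Fcgr3a*, *Syk*, *Btk* and *Plcg2*. They were searched on both strands for GAGGAA, the core of the motif of PU.1, a transcription factor of myeloid cells. Each of the 5 genes had a window with a match, against 27.6% of the 33469 windows in the table. The other *Fcgr2a* window held none. Windows of 4 genes are printed because they belong to genes with different behaviour in the lung, *Fcgr2a*, *Syk* and *Btk* with higher levels after MWCNT and *Fcgr3a* without. Capitals mark the match, as GAGGAA or, on the opposite strand, TTCCTC.
Fcgr2a, chr13:85828636-85828935, minus strand, GRCr8: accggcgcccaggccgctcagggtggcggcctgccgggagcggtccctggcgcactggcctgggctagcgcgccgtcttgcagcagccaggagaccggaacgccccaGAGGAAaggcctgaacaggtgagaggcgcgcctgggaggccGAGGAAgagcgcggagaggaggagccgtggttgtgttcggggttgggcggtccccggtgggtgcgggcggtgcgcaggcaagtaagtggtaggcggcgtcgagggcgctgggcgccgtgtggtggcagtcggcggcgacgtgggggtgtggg
Fcgr3a, chr13:85782386-85782685, plus strand, GRCr8: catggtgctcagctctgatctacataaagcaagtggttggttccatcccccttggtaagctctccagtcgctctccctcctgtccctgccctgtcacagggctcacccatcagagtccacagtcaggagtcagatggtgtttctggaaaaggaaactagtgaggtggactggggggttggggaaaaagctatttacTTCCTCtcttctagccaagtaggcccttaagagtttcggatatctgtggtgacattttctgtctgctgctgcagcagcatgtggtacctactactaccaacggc
Syk, chr17:12813224-12813523, minus strand, GRCr8: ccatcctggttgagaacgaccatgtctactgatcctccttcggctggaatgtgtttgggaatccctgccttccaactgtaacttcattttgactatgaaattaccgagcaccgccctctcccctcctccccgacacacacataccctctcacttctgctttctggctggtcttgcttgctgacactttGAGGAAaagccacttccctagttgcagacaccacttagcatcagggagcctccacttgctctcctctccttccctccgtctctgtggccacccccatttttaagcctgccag
Btk, chrX:102055094-102055393, minus strand, GRCr8: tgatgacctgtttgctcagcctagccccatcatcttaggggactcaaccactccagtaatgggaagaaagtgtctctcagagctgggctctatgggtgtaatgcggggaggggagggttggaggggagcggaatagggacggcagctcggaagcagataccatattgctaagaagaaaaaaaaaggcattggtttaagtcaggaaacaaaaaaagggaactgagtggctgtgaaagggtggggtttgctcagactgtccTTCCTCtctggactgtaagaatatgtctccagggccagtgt
The first bases of the matches lay at -143 and -102 from the start of *Fcgr2a*, -54 of *Fcgr3a*, -62 of *Syk* and 10 of *Btk*, and that of *Plcg2* lay at -134. *Fcgr3a*, whose level did not pass the test, thus had a match, as did the other 4 genes searched.

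The inhibitory receptor *Fcgr2b* rose most among the 9 genes at each time point. Control levels were 6.53, 7.99 and 9.94 TPM at Year 0.5, 9.84, 12.5 and 11.1 TPM at Year 1, and 10.2, 7.65 and 11.04 TPM at Year 2. Levels after MWCNT were 57.4, 67.4 and 56.7 TPM at Year 0.5, 58.4, 69.7 and 56.0 TPM at Year 1, and 86.2, 78.6 and 78.1 TPM at Year 2. The lowest treated rat thus lay far above the highest control rat at every time point. The log2 fold change was 3.04 (SE 0.15, edgeR FDR 4.79e-06) at Year 0.5, 2.71 (SE 0.13, FDR 2.97e-06) at Year 1 and 3.29 (SE 0.13, FDR 3.71e-07) at Year 2, which are 8.23-fold, 6.53-fold and 9.79-fold. Of all genes tested at the same time point, 0.489%, 0.795% and 0.891% had a larger log2 fold change.

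*Fcgr2a*, the rat receptor also named fc-gamma RIII, had the highest level of the activating receptors *Fcgr1a*, *Fcgr2a* and *Fcgr3a*. Its TPM at Year 0.5 was 68.2, 77.2 and 81.6 in control rats against 204, 214 and 191 in treated rats. At Year 1 the values were 86.7, 93.4 and 85.7 against 209, 241 and 202, and at Year 2 they were 87.7, 88.9 and 92.2 against 254, 238 and 233. The groups did not overlap, and the log2 fold changes of 1.57 (SE 0.08), 1.54 (SE 0.11) and 1.65 (SE 0.08) had edgeR FDRs of 6.60e-06, 1.47e-05 and 8.34e-07. LOC108348047, inside *Fcgr2a*, had a higher TPM than *Fcgr2a* in every rat. At Year 0.5 it had 92.9, 105 and 105 TPM in control rats against 218, 262 and 217 TPM in treated rats. At Year 2 it had 102, 101 and 109 TPM against 273, 277 and 278 TPM. The levels and ranks given for *Fcgr2a* leave this entry out. LOC108348047 rose by 1.35, 1.39 and 1.63 on the log2 scale (edgeR FDR 2.40e-05, 1.76e-05 and 3.86e-07). With its counts added to those of *Fcgr2a*, a sum chosen after the values were seen, the log2 fold change was 1.48, 1.48 and 1.64.

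*Fcgr1a*, the high-affinity receptor for IgG, also rose at each time point. It was measured at 25.4, 28.9 and 20.1 TPM in control rats of Year 0.5 against 56.6, 54.6 and 48.7 TPM in the treated rats. The Year 1 values were 34.5, 29.1 and 28.7 TPM against 56.0, 67.8 and 55.7 TPM, and those of Year 2 were 32.9, 30.1 and 38.0 TPM against 76.0, 84.9 and 72.3 TPM. Every treated rat was above every control rat of its time point, and the log2 fold changes were 1.25 (SE 0.13), 1.20 (SE 0.14) and 1.42 (SE 0.10), with edgeR FDRs of 0.000173, 0.000218 and 7.84e-06.

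*Fcgr3a*, the rat receptor also listed as CD16-2, was the activating receptor that did not pass the test. Its TPM at Year 0.5 was 47.2, 53.4 and 37.7 in control rats against 42.6, 42.0 and 38.0 in treated rats, and 65.6, 62.7 and 53.0 against 39.9, 70.6 and 54.4 at Year 1. At Year 2 it was 71.8, 67.3 and 60.4 TPM in control rats against 54.1, 51.0 and 53.1 TPM in treated rats. The groups overlapped at Years 0.5 and 1, whereas at Year 2 the treated rats were all below the control rats in TPM. The log2 fold changes were -0.03 (SE 0.13, edgeR FDR 0.886), 0.11 (SE 0.21, FDR 0.684) and -0.12 (SE 0.10, FDR 0.324). The scale matters here. Over all genes tested, the log2 fold change of a gene was lower than with TMM scaling by a median of 0.139, 0.230 and 0.207 with limma on log2(TPM + 1). With scaling by library size it was lower by a median of 0.104, 0.134 and 0.171. *Fcgr3a* at Year 2 fell by 0.33 on the log2(TPM + 1) scale and passed the FDR there (limma FDR 0.00857), as with scaling by library size, where it fell by 0.29 (edgeR FDR 0.0243), and at Year 1 its sign was negative on that scale.

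**Figure D1:**
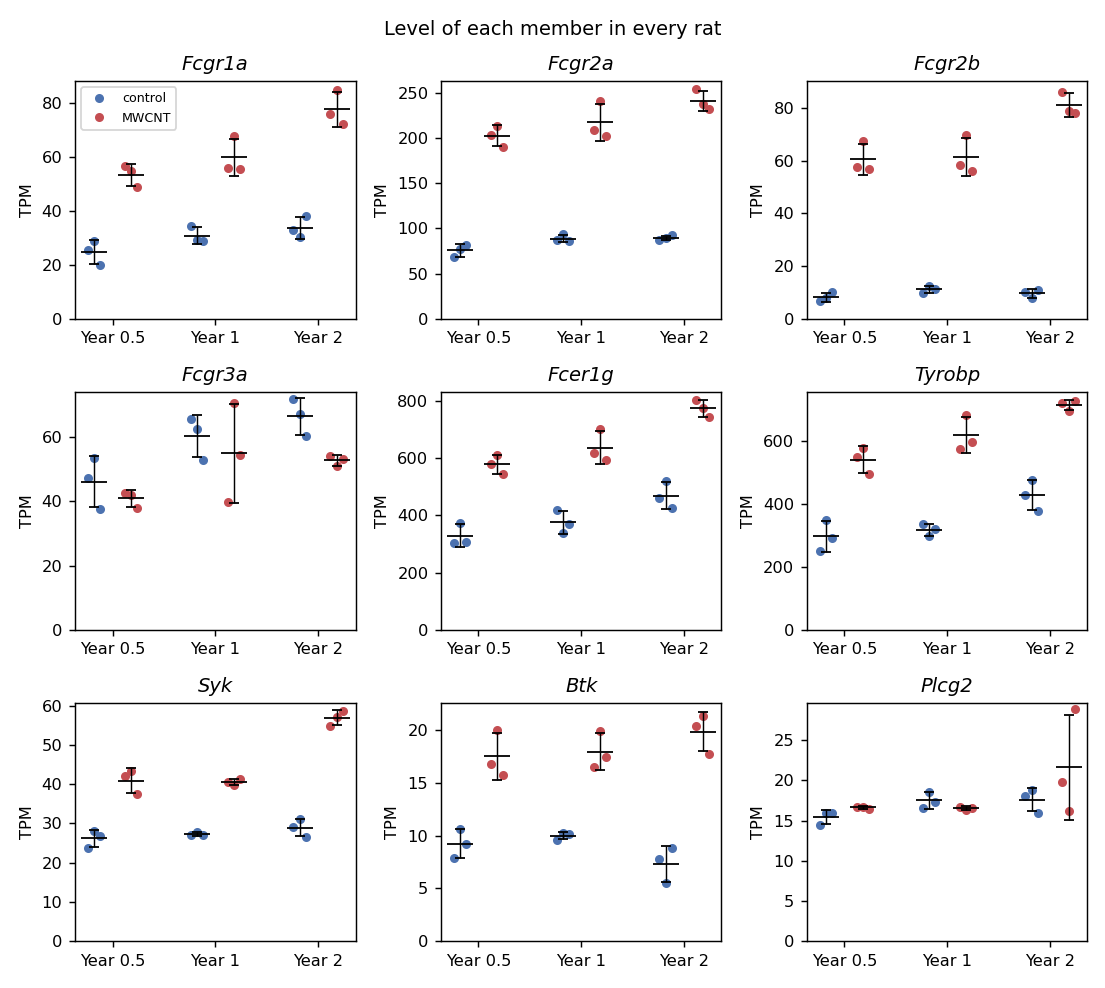
Level of each of the 9 genes in TPM (vertical axis) in every rat (points) by time point (horizontal axis), control in blue and MWCNT-treated in red, with the group mean and SD in black (n = 3). The treated rats of *Fcgr2b* lie between 56.0 and 86.2 TPM and its control rats between 6.53 and 12.5 TPM, whereas the groups of *Fcgr3a* at Years 0.5 and 1 overlap.

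The ITAM adaptor *Fcer1g*, the gamma chain shared by the activating Fc gamma receptors and the IgE receptor, was the most abundant of the 9 genes. At Year 0.5 it had 303, 374 and 307 TPM in control rats against 580.2, 612 and 545 TPM in treated rats. The values were 418, 339 and 371 against 617, 702 and 592 TPM at Year 1, and 460.5, 522 and 426 against 804, 775 and 742 TPM at Year 2. The groups did not overlap. The log2 fold change was 0.96 (SE 0.10), 1.00 (SE 0.12) and 0.94 (SE 0.09), with edgeR FDRs of 0.000124, 0.000318 and 3.76e-05, so that the gene rose at each time point and stayed just under the fold limit of a DEG, at Year 1 with 0.9998 before rounding.

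*Tyrobp*, the adaptor of TREM2, behaved much like *Fcer1g*. It had 248.6, 348 and 291 TPM in control rats against 548, 577 and 495 TPM in the treated rats at Year 0.5. The Year 1 values were 335, 296 and 321 against 574, 682 and 595 TPM, and those of Year 2 were 428, 474 and 378 against 719, 696 and 727 TPM. Again no treated rat fell within the control range, and the log2 fold changes were 1.01 (SE 0.12), 1.20 (SE 0.11) and 0.96 (SE 0.09), with edgeR FDRs of 0.000316, 6.89e-05 and 3.68e-05. It was a DEG at Years 0.5 and 1 and was under the fold limit at Year 2.

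*Syk*, the kinase recruited by phosphorylated ITAMs, was measured at 23.8, 28.0 and 26.8 TPM in control rats against 42.0, 43.3 and 37.4 TPM in the treated rats of Year 0.5. At Year 1 it had 27.02, 27.9 and 27.02 against 40.7, 39.7 and 41.3 TPM, and at Year 2 29.1, 31.1 and 26.6 against 54.9, 57.3 and 58.7 TPM. The treated rats were above the control rats at each time point, and those of Year 2 were also above all earlier treated rats. The log2 fold change was 0.79 (SE 0.09) and 0.81 (SE 0.07) at Years 0.5 and 1, under the fold limit, and 1.19 (SE 0.08) at Year 2, with edgeR FDRs of 0.000229, 3.58e-05 and 3.90e-06.

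*Btk*, a Tec family kinase of B cells and myeloid cells, had 7.87, 10.6 and 9.19 TPM in control rats against 16.8, 19.997 and 15.8 TPM in the treated rats of Year 0.5. The values were 9.60, 10.2 and 10.1 against 16.5, 19.97 and 17.4 TPM at Year 1, and 7.74, 5.47 and 8.79 against 20.5, 21.4 and 17.8 TPM at Year 2. It was a DEG at each time point, with log2 fold changes of 1.08 (SE 0.15), 1.09 (SE 0.13) and 1.66 (SE 0.18) and edgeR FDRs of 0.000725, 0.000256 and 7.64e-05.

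*Plcg2*, the phospholipase downstream of both kinases, changed least among the genes that passed the FDR. Its TPM at Year 0.5 was 14.4, 16.0 and 15.9 in control rats against 16.7, 16.7 and 16.5 in treated rats, and 16.5, 18.6 and 17.4 against 16.7, 16.3 and 16.6 at Year 1. At Year 2 it was 18.1, 18.8 and 16.0 TPM in the control rats against 19.7, 16.2 and 28.9 TPM in the treated rats. The groups overlapped at Years 1 and 2, and 1 treated rat stood apart at Year 2. The log2 fold change was 0.25 (SE 0.08, edgeR FDR 0.0271), 0.16 (SE 0.08, FDR 0.146) and 0.51 (SE 0.19, FDR 0.0465). Without the treated rat at 28.9 TPM, the Year 2 value was 0.26, and it missed the FDR when any 1 of 5 of the 6 rats was left out. The Year 0.5 call of *Plcg2* was lost when any 1 of 3 of the 6 rats was left out and with DESeq2 (adjusted p 0.0542), and both calls were lost with upper quartile scaling (edgeR FDR 0.054 and 0.0652), scaling by library size (0.138 and 0.148) and limma on log2(TPM + 1) (0.336 and 0.289).

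**Figure D2:**
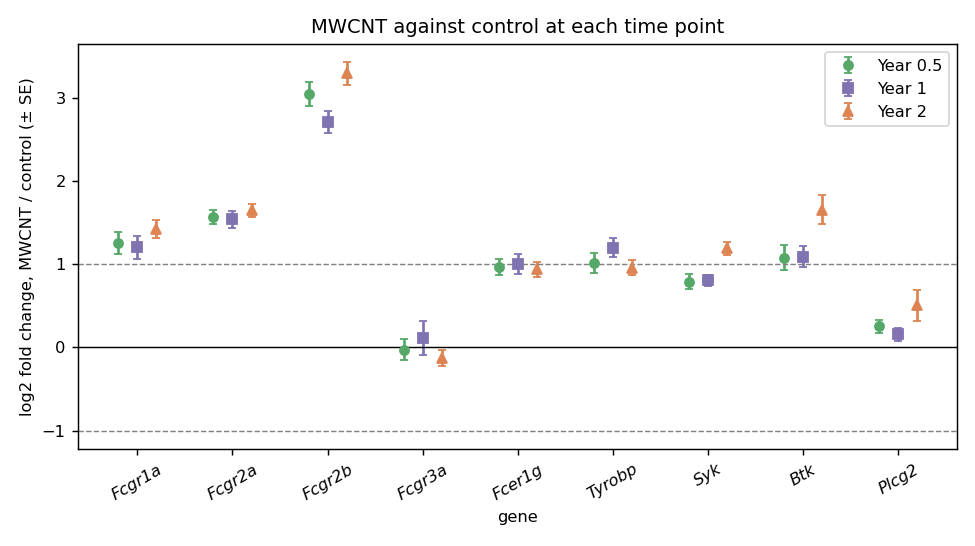
Log2 fold change of MWCNT-treated against control rats with its standard error (vertical axis; edgeR, 3 rats per group) for each of the 9 genes (horizontal axis) at the 3 time points, with dashed lines at the DEG limits of 1 and -1. *Fcgr2b* lies highest, at 2.71 to 3.29, and *Fcgr3a* lies around 0, at -0.12 to 0.11.

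Counted together, 5 of the 9 genes were upregulated DEGs at each time point, against 6.07%, 6.13% and 8.17% of all genes tested at Years 0.5, 1 and 2. By the FDR alone, 8, 7 and 8 genes rose, where 20.2%, 21.6% and 25.2% of all genes tested rose, and *Plcg2*, 1 of the 8 at Years 0.5 and 2, was lost under several alternatives given above. With scaling by library size only, 3, 4 and 5 of the 9 were DEGs, and with limma on log2(TPM + 1) 3, 2 and 4 were. At Year 0.5 the count was also 3 without the first control rat or without the second treated rat. None of the 9 fell by the FDR in edgeR with TMM scaling (count 0, also at an unadjusted p below 0.05 and with DESeq2), where 18.6%, 19.6% and 24.0% of all genes fell. At Year 2, 1 gene, *Fcgr3a*, fell in edgeR with scaling by library size and with limma on log2(TPM + 1). The median log2 fold change of the 9 genes was 1.01, 1.09 and 1.19, and that of all genes tested was -0.02, 0.00 and -0.01. The treated rats were all above the control rats in TPM for 8, 7 and 7 genes. The share of all genes that separated in this way was not computed, so these counts are only a description. In lung tissue, more cells that carry a transcript and more transcript per cell cannot be told apart.

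The order of levels changed with *Fcgr2b*. In TPM, *Fcer1g* and *Tyrobp* ranked first and second, with *Fcgr2a* next, in all 6 groups, and the ranges of *Fcer1g* and *Tyrobp* overlapped in 4 of them. *Fcgr2b* was the lowest of the 9 in the control rats of Year 0.5 and the second lowest in those of Years 1 and 2, each time with a range that overlapped that of *Btk*. It came directly after *Fcgr2a* in the treated rats of each time point, where its range overlapped that of *Fcgr1a* at Years 1 and 2. *Fcgr3a* came directly after *Fcgr2a* in the control rats of each time point and ranked 6 or 7 in the treated rats.

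The balance of activating and inhibitory receptors was compared within each rat, where library scaling cancels out. The ratio of the summed TPM of *Fcgr1a*, *Fcgr2a* and *Fcgr3a* to that of *Fcgr2b* at Year 0.5 was 21.6, 19.97 and 14.01 in control rats against 5.28, 4.61 and 4.89 in treated rats. It was 19.0, 14.8 and 15.1 against 5.23, 5.44 and 5.57 at Year 1, and 18.9, 24.3 and 17.3 against 4.46, 4.75 and 4.59 at Year 2. Every treated rat was below every control rat. *Fcgr2b* made up 5.29% ± 1.20 (SD, n = 3), 5.84% ± 0.73 and 4.81% ± 0.78 of the summed receptor TPM of control animals, against 16.9% ± 0.95, 15.6% ± 0.42 and 17.9% ± 0.47 of that of treated animals. LOC108348047, inside *Fcgr2a*, was left out of these sums. It had 92.9 to 115 TPM in control and 217 to 278 TPM in treated rats. With it, the ratios would be higher and the shares of *Fcgr2b* lower. On the log2 scale the ratio differed by -1.89, -1.58 and -2.12 at the 3 time points, and by -1.86 on average. A two-sided exact permutation test with treatment exchanged within time points gave p = 0.00025, the smallest of its 8000 arrangements. One time point alone cannot go below 0.1.

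**Figure D3:**
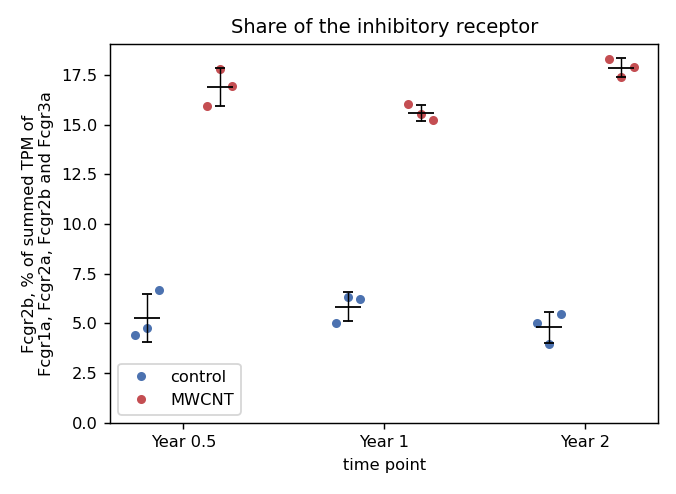
Share of *Fcgr2b* in the summed TPM of *Fcgr1a*, *Fcgr2a*, *Fcgr2b* and *Fcgr3a* (vertical axis, percent) in every rat by time point, with group mean and SD (n = 3). Control rats lie between 3.95% and 6.66% and MWCNT-treated rats between 15.2% and 18.3%. LOC108348047, inside *Fcgr2a*, is not in the sum.

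The time course was examined in one edgeR model of all 18 rats. None of the 9 genes had an interaction of treatment and time at an FDR below 0.05 (count 0), against 0.667% of all 14843 genes tested. At an unadjusted p below 0.05 the count was 3, *Fcgr2b*, *Syk* and *Btk*, and DESeq2 called 1 gene, *Syk*, with an adjusted p of 0.0157 for its interaction in DESeq2. The share of all genes at that unadjusted p was not computed, so the count of 3 is not read as a result. *Syk* came closest, with a log2 fold change at Year 2 larger by 0.41 (SE 0.11) than at Year 0.5 and an FDR of 0.0859 for the interaction in edgeR. For *Btk* the difference was 0.59 (SE 0.23) and the FDR of the interaction 0.273, and for *Fcgr2b* the FDR was 0.296. In edgeR, different sizes of the response at the 3 time points were thus not shown for any of the 9, and in DESeq2 they were for *Syk* alone.

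Levels did rise with time in the MWCNT-treated rats. Between Year 0.5 and Year 2, 7 of the 9 genes rose at an FDR below 0.05, all but *Fcgr3a* and *Btk*, and 13.5% of all genes changed in either direction. The log2 differences of these 7 ranged from 0.34 for *Fcgr2a* to 0.63 for *Fcgr1a*, with 0.56 (SE 0.07) for *Syk* and 0.50 (SE 0.14) for *Fcgr2b*. The difference of *Fcgr3a* was 0.45 (SE 0.18, edgeR FDR 0.106) and that of *Btk* 0.26 (SE 0.15, FDR 0.291). Leaving out 1 rat lowered the count to 4 (treated rat 1 of Year 0.5, or 1 of Year 2) or 2 (treated rat 3 of Year 0.5).

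In the control rats, 2 of the 9 genes changed between Year 0.5 and Year 2, against 6.65% of all genes. These were *Fcer1g*, higher by 0.52 (SE 0.11, edgeR FDR 0.015), and *Tyrobp*, higher by 0.54 (SE 0.12, FDR 0.0178), differences close in size to those of the same adaptors in the treated rats (0.50 and 0.49). The count was 0 without control rat 1 or 3 of Year 0.5 or 1 or 2 of Year 2, 5 without treated rat 2 of Year 1, and 4 with DESeq2. *Fcgr3a* was higher by 0.54 (SE 0.18, edgeR FDR 0.0763) and *Fcgr1a* by 0.45 (SE 0.14, FDR 0.0701) in the control rats, neither past the FDR. *Btk* alone of the 9 was lower at Year 2 in the control rats, by 0.32 (SE 0.17), with an FDR of 0.263 in edgeR. A change with time that differed between treated and control rats was not shown in edgeR, where no interaction passed the FDR. From Year 0.5 to Year 1 none of the 9 passed the edgeR FDR in either treatment (count 0 in each, against 0.101% of all genes in the treated and 0% in the control rats), 2 genes in each had an unadjusted p below 0.05, and DESeq2 called 0. Here too the share of all genes at that unadjusted p was not computed.

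The 9 genes were next set against *Ptprc*, which encodes CD45, the surface phosphatase of all leukocytes. *Ptprc* itself rose in edgeR by 0.36 at Year 0.5 (FDR 0.00894) and 0.28 at Year 2 (FDR 0.0141), and was at 0.15 at Year 1 (FDR 0.161). In TPM, log2 fold changes lie lower in the median than with TMM scaling, as given above. There *Ptprc* differed by 0.07 on the log2 TPM scale between MWCNT-treated and control rats, averaged over the time points (two-sided exact permutation test within time points, p = 0.233). Relative to *Ptprc*, *Fcgr2b* was higher by 2.75, *Fcgr2a* by 1.32, *Fcgr1a* by 1.03, *Btk* by 1.01, *Tyrobp* by 0.80, *Fcer1g* by 0.71 and *Syk* by 0.67 on the log2 scale. Each of these 7 had p = 0.00025 in the same exact permutation test, and their treated rats were above the control rats at every time point. *Fcgr3a* was lower by 0.29 relative to *Ptprc* (p = 0.022, exact permutation), a difference whose p was 0.0535, 0.0653 and 0.0798 in the same exact permutation test without control rat 1, control rat 2 or treated rat 1 of Year 1, respectively, and *Plcg2* differed by 0.03 (p = 0.779, exact permutation). These 9 p-values are not adjusted.

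Against *Cd68*, a lysosomal protein of macrophages, the sign of the difference turned for 7 genes. *Cd68* rose by 2.44, 2.50 and 3.03 on the log2 scale at the 3 time points (edgeR FDR 1.41e-06, 4.92e-06 and 2.63e-07), more than 8 of the 9 genes. Relative to *Cd68*, *Fcgr2b* was higher by 0.37 (p = 0.00275, exact permutation), and the other 8 genes were lower, by 1.07 for *Fcgr2a* up to 2.67 for *Fcgr3a*, each with p = 0.00025 in the exact permutation test. *Csf1r*, the receptor of the macrophage growth factor, rose by 0.34, 0.34 and 0.55 (edgeR FDR 0.0154, 0.00373 and 0.000128). Against it, the 7 genes that were higher relative to *Ptprc* were higher again, by 0.52 for *Syk* up to 2.61 for *Fcgr2b*. Each of the 7 had p = 0.00025 in the exact permutation test. *Fcgr3a* was lower by 0.43 relative to *Csf1r* (p = 0.002, exact permutation) and *Plcg2* by 0.11 (p = 0.228, exact permutation).

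Markers of several cell types moved with treatment. The 8 macrophage markers summed to between 302 and 386 TPM in the control rats and between 748 and 1072 TPM in the treated rats over the time points, and 7, 7 and 8 of them rose by the FDR, while 1 (*Cd163*) fell at Year 1. The 6 neutrophil markers summed to between 206 and 365 TPM in the control rats and between 359.8 and 1131 TPM in the treated rats. Of the 4 that were tested, 1, 2 and 2 rose. *S100a8* and *S100a9* made up most of these sums, with 207 to 401 and 385 to 699 TPM in the treated rats of Year 2. At Year 2 *Csf3r* had 15.3 to 27.8 TPM in control against 14.2 to 18.7 TPM in treated rats, and *Cxcr2* had 7.31 to 15.4 against 9.67 to 12.2 TPM. The primary granule genes *Mpo* or *Elane* were at 0 counts throughout 4 of the 6 groups. B cell markers (6 genes) summed to between 44.6 and 93.8 TPM in the control rats and between 13.2 and 44.4 TPM in the treated rats. T cell markers (5 genes) summed to between 103 and 189 TPM against 42.4 and 93.2 TPM, and NK cell markers (4 genes) to between 116 and 374 TPM against 43.8 and 173 TPM. None of the tested B, T and NK cell markers rose by the edgeR FDR at any time point. Those that fell were 6, 2 and 3 for B cells, 4, 1 and 5 for T cells and 3, 4 and 2 for NK cells at Years 0.5, 1 and 2. Of all genes tested, 20.2%, 21.6% and 25.2% rose and 18.6%, 19.6% and 24.0% fell by the FDR. *Fcgr2b* and *Btk* are known from B cells as well as macrophages, and the cells in which they rose were not tested. The 3 plasma cell markers summed to between 167 and 549.6 TPM in the control rats and between 318 and 1685 TPM in the treated rats.

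Of the 6 mast cell markers, 5, 5 and 6 were tested and 2, 4 and 5 were upregulated DEGs at Years 0.5, 1 and 2. The shares over all genes tested were 6.07%, 6.13% and 8.17%. *Cpa3*, *Tpsb2*, *Cma1*, *Ms4a2* and *Fcer1a* were DEGs at Year 2, with log2 fold changes of 3.78 to 6.16. These 5 genes had only 4 to 26 counts per control rat at Year 2, so the sizes of their changes are uncertain. *Kit*, which is not restricted to mast cells, fell at each time point. Summed mast cell markers were 104 to 126 TPM in the control rats and 217 to 251 TPM in the treated rats of Year 2, and 92.5 to 152 TPM against 66.4 to 69.8 TPM at Year 0.5. *Kit* made up most of the Year 0.5 sums, with 86.7 to 149.9 TPM in control and 46.4 to 63.1 TPM in treated rats. The platelet markers (4 genes) summed to between 42.2 and 55.6 TPM in the control rats and between 105 and 142 TPM in the treated rats, a sum in which *Pf4* rose while *Itga2b* fell. The part of these cells in the changes of the 9 genes was not tested.

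**Figure D4:**
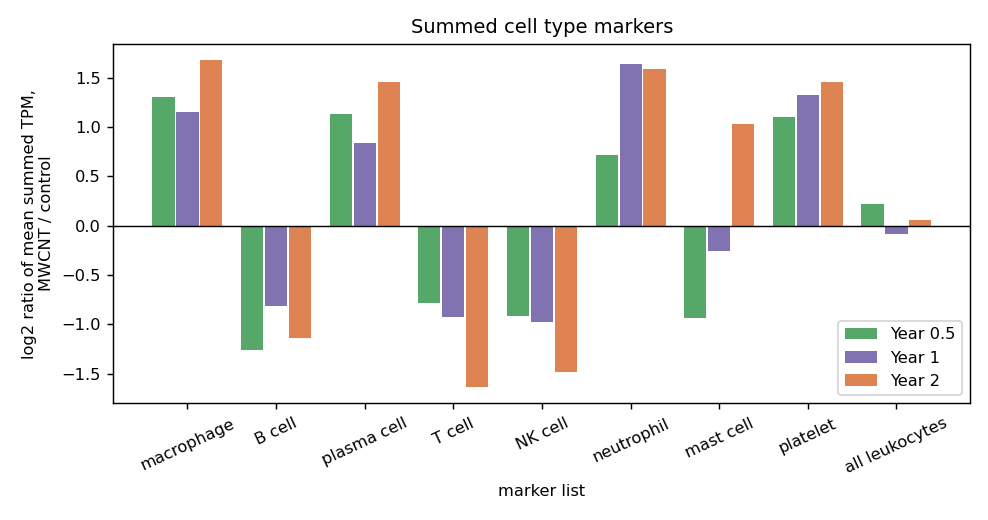
Log2 ratio of the mean summed TPM of each marker list, MWCNT-treated over control (vertical axis; means of 3 rats), for 9 marker lists (horizontal axis) at the 3 time points. The macrophage sum is higher and the B, T and NK cell sums are lower at every time point, and the TPM of *Ptprc*, for all leukocytes, lies near 0, where edgeR with TMM scaling gave 0.36, 0.15 and 0.28.

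Other genes of the pathway were followed in 4 lists. Of 13 other Fc and immunoglobulin receptors, 12, 12 and 13 were tested, and 3, 5 and 7 were upregulated DEGs at Years 0.5, 1 and 2. Of all genes tested, 6.07%, 6.13% and 8.17% were upregulated DEGs. The count in the list was 2 at Year 1 with limma on log2(TPM + 1), and 4 at Year 2 when at least 10 counts were asked of every rat. Downregulated DEGs numbered 1, 0 and 0 (edgeR; 3, 0 and 1 by the FDR alone), where 3.03%, 4.09% and 8.22% of all genes tested were downregulated DEGs. The median log2 fold change was 0.46, 0.33 and 1.54. At Year 2, *Fcrlb*, an intracellular Fc receptor-like protein, rose by 4.33 (SE 0.25), and *Ms4a2*, the beta chain of the high-affinity IgE receptor, rose by 4.16 (SE 0.24). They started from 9 to 17 and 12 to 23 counts per control rat. The lowest values belonged to the B cell receptors *Fcrl1* and *Fcrl5*, at -0.78 (SE 0.73) and -0.69 (SE 0.37), neither past the FDR.

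The further ITAM genes moved in both directions. Of 25 genes listed as further ITAM adaptors and receptors, 23 were tested at each time point. Of these, 11, 10 and 12 were upregulated DEGs and 2, 0 and 6 downregulated. Of all genes tested, 6.07%, 6.13% and 8.17% were upregulated DEGs and 3.03%, 4.09% and 8.22% downregulated. The list also holds the inhibitory receptor *Cd200r1* and the adaptor *Hcst*, which do not signal through an ITAM. At Year 2 *Cd200r1* had 3.44 to 4.98 TPM in control against 15.1 to 21.0 TPM in treated rats. *Hcst* had 24.9 to 34.6 TPM against 26.4 to 37.0 TPM. The downregulated DEGs at Year 2 were the T cell receptor chains *Cd3d*, *Cd3e*, *Cd3g* and *Cd247*, the B cell receptor chain *Cd79b* at -1.67 (SE 0.32) and the platelet receptor *Clec1b* at -2.24 (SE 0.41). The highest values were those of the TYROBP partners *Cd300lb*, at 3.36 (SE 0.19), and *Trem2*, at 2.81 (SE 0.08), both known from myeloid cells. *Tyrobp* itself rose by 0.96 at Year 2.

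Among the kinases, adaptors and effectors, 31 of 32 were tested. Of these, 18, 17 and 18 rose by the FDR, 6, 6 and 7 of them as DEGs, and 5, 5 and 4 fell. By the FDR, 20.2%, 21.6% and 25.2% of all genes tested rose and 18.6%, 19.6% and 24.0% fell. Upregulated DEGs were 6.07%, 6.13% and 8.17% of all genes tested. The falls are not read as a result about the list. With limma on log2(TPM + 1), 3 were upregulated DEGs at Year 1 and 4 at Year 2. At Year 2, *Blnk*, the scaffold that links SYK to BTK and PLCG2, rose by 2.44 (SE 0.12), and *Lat2*, a membrane adaptor, rose by 1.68 (SE 0.19). *Zap70*, the T cell kinase related to SYK, fell by 1.42 (SE 0.23). *Syk* and *Zap70* thus moved in opposite directions at Year 2.

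Of 32 ITIM receptors, phosphatases and other inhibitors, 29 were tested. By the FDR 18, 20 and 21 rose, 10, 11 and 11 of them as DEGs, 3, 1 and 3 fell, and 8, 8 and 5 did not pass. Of all genes tested, 20.2%, 21.6% and 25.2% rose and 18.6%, 19.6% and 24.0% fell by the FDR, and 6.07%, 6.13% and 8.17% were upregulated DEGs. The median log2 fold change was 0.65, 0.57 and 0.78. The highest at Year 2 were *Lilrb3*, an inhibitory leukocyte receptor, at 4.61 (SE 0.18), and *Clec4a*, an inhibitory C-type lectin, at 4.10 (SE 0.30), from 8 to 12 counts per control rat for *Clec4a*. The lowest were *Ceacam1*, at -1.52 (SE 0.16), and *Ubash3a*, a T cell phosphatase, at -0.72 (SE 0.21). Reads of *Lilrb3*, *Clec4a* and their close paralogs may have been divided between entries by the counting, so the single values are uncertain.

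**Figure D5:**
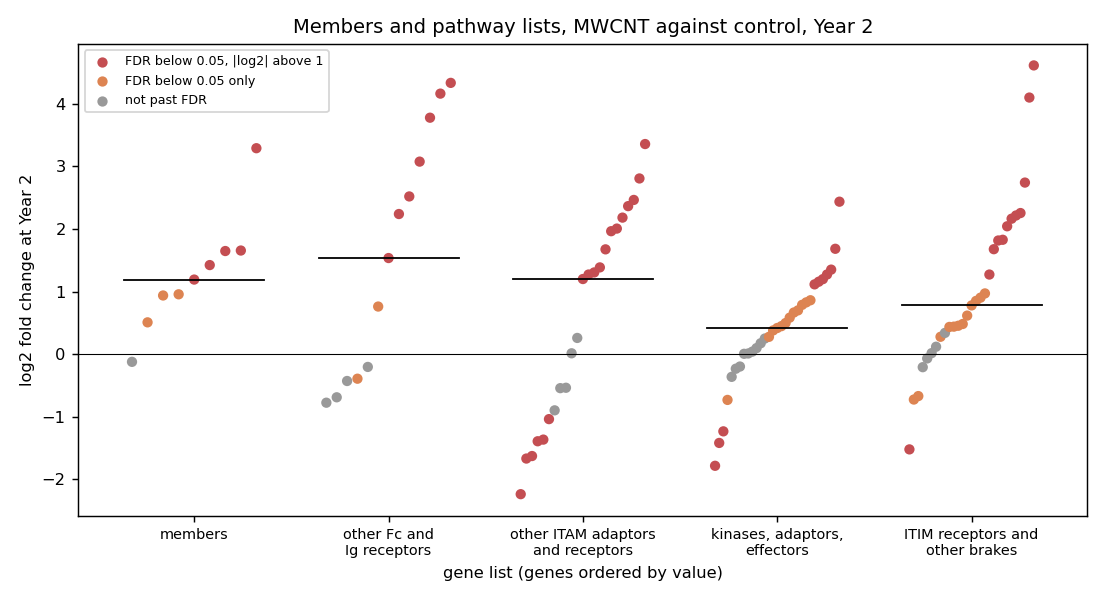
Log2 fold change at Year 2 (vertical axis) of the 9 genes and of the tested genes of the 4 pathway lists (horizontal axis; each point a gene, ordered by value; black lines are medians), with DEGs in red and genes past the FDR only in orange. The median is 1.19 for the 9 genes and 1.54, 1.20, 0.42 and 0.78 for the lists.

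Profiles across the 6 groups were compared over 14842 other genes, by the root mean square difference of centred group means of log2 CPM. Closest to *Fcer1g* were *RGD1561730* (0.0541), *Gngt2* (0.0552) and *Tyrobp* (0.0592), the last being the other ITAM adaptor among the 9. Closest to *Syk* were *Gng2* (0.0219), *Fat3* (0.0421) and *Csf1* (0.0568), a growth factor of macrophages. Closest to *Fcgr2b* were *Fcrl2* (0.106), itself an Fc receptor-like gene, *Mreg* (0.112) and *Slc37a2* (0.166). The log2 fold changes of these 3 at Year 2 were 3.08, 3.15 and 3.03, beside 3.29 for *Fcgr2b*.

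Rat-to-rat deviations from the group mean were also alike for some pairs of the 9 genes. Over the 18 rats, Pearson's r of the deviations in log2 CPM was positive for 34 of 36 pairs, with a median of 0.39. It was highest between *Fcer1g* and *Tyrobp* (0.91) and between *Tyrobp* and *Syk* (0.84), and *Fcgr2a* and *Fcgr2b* had 0.79. The lowest values were those of *Plcg2* with *Fcgr1a* (-0.27) and with *Btk* (-0.23). The points share libraries and scaling factors, and the values are a description.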

How the data were processed

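Lung RNA of 18 rats (minimum RNA integrity number 7.0) was extracted as total RNA and sequenced from libraries made with an NEBNext Ultra II kit. In CLC Genomics Workbench the authors aligned the reads to a rat reference and deposited 1 table per time point. Per the labels the build was Rnor_6.0. The annotation, the handling of reads with several matches and strand use are not given in the sources used here. The deposited counts are whole reads per gene without normalization. The TPM values, scaled by the authors for gene length and library, were used for levels and ratios. The CPM values were adjusted by the authors with TMM factors, a normalized signal, and were used only as an alternative to TPM in the ratios. Not used were the deposited RPKM values and the columns of the authors' own fold changes and p-values.

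Counts were tested in R 4.3.3 with edgeR 4.0.16 (filterByExpr at its minimum count of 10 and minimum total of 15, TMM, quasi-likelihood test), with the 6 rats of a time point or all 18 rats, and FDRs over all genes tested. The standard error was the log2 fold change over the root of its F. The fits were tested on simulated counts. Ratios were compared by exact permutation over 8000 arrangements in Python 3.11.15. Correlations and profiles used log2 CPM computed from the counts with a prior count of 2. A planned adjustment of p-values over the 9 genes alone is not given. The 9 genes and the lists were chosen with earlier results of these data known. The genes named from a list were those with the 2 highest and 2 lowest log2 fold changes at Year 2, and the 3 closest profiles were named for *Fcer1g*, *Syk* and *Fcgr2b*. Of these, 1 gene is not reported here. The downregulated ITAM genes *Cd3d*, *Cd3e*, *Cd3g* and *Cd247* were named after their values were seen. *Cd200r1* and *Hcst* were named because they do not signal through an ITAM. The alternatives were other filters and scalings, DESeq2 1.42.0, limma 3.58.1 on log2(TPM + 1) and log2(TPM + 0.1), a replicate block, other FDR limits, other denominators and each rat left out. Depth sets the counting error, and the 3 rats of a group set the precision.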

Additional observations from a re-analysis of the deposited data

How the results depend on the processing

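For the 7 genes other than *Fcgr3a* and *Plcg2*, the log2 fold changes at the 3 time points kept their direction and their side of the FDR in 360 of 360 alternatives. These include other limits set on the main fit itself, where the direction could not change. At the unchanged FDR limit of 0.05 the side of the FDR could not change there either. The number of upregulated DEGs among the 9, 5 at each time point, was less stable. At Year 0.5 it was 3 with scaling by library size only and with limma on log2(TPM + 1) or log2(TPM + 0.1), 8 by the FDR alone and 3 to 6 with 1 rat left out. At Year 1 it was 2 with limma on either TPM scale and 4 to 6 with 1 rat left out, and at Year 2 it was 8 by the FDR alone and 5 to 7 with 1 rat left out. DESeq2 called 1 interaction of treatment and time and 4 changes with time in the control rats. With 1 rat left out, the genes changing with time numbered 2 to 8 in the treated and 0 to 5 in the control rats. *Fcgr3a* changed sign at Year 1 with scaling by library size only (-0.0233), with limma on log2(TPM + 1) (-0.17) and log2(TPM + 0.1) (-0.17) and without treated rat 2 (-0.165, in a range up to 0.311), and at Year 0.5 without control rat 2 (0.0939) or treated rat 3 (0.0451), within a range of -0.157 to 0.0939 over the rats left out. *Plcg2* changed sign at Year 1 with limma (-0.0757 and -0.0796 on the TPM scales). For these sign changes the cause was not tested. The activating to inhibitory ratio differed by -1.44 to -3.04 over the other settings, the extremes being *Fcgr2a* alone and *Fcgr3a* alone as numerator, and by -1.93 to -1.82 with 1 rat left out, all past the threshold. The other settings included LOC108348047 added to the activating receptors.

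With *Cd68* in place of *Ptprc* the differences turned to -1.36 for *Fcgr1a*, -1.07 for *Fcgr2a*, -1.68 for *Fcer1g*, -1.59 for *Tyrobp*, -1.72 for *Syk*, -1.38 for *Btk* and -2.36 for *Plcg2*, since *Cd68* itself rose more than these genes. *Plcg2* was at -0.11 with *Csf1r* as denominator, and at -0.0072 and -0.0395 without control rat 3 or treated rat 3 of Year 2, in a range up to 0.0826 over the rats left out. Replicate numbers gave no sign of a pairing of rats. Deviations from the group mean correlated on average at 0.007 between rats of the same number and at -0.003 between others. Single values ran from -0.164 to 0.165, and so few of them cannot exclude a pairing. With the replicate number as a block, the number of DEGs among the 9 was 5 at each time point, 6 genes changed with time in the treated rats and 2 in the control rats, and 0 had an interaction. With 3 rats per group, at 13297643 or more counts per rat, *Plcg2* had 414 to 915 counts per rat, and the shares of counting error and of the spread between rats in its error were not tested.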
